A study of Mus musculus with 4 samples.

Results

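Endothelial identity genes are the set by which blood vessel lining cells are usually recognized, and 10 of them were followed here across mesenchymal stroma cells (MSCs) and CD8+ T cells that were sorted out of the Bcr-Abl+ tumor tissue of Sipa1-/- and control (Wt) mice. The genes were Pecam1, Cdh5, Kdr, Tek, Tie1, Flt1, Emcn, Vwf, Cldn5 and Plvap, chosen by name out of 22911 gene symbols represented on the array, and each was read by 1 probe. Endothelial cells form the inner wall of vessels. They receive VEGF through the receptor tyrosine kinases Flt1 and Kdr and angiopoietins through Tek, hold together through cadherin, claudin and CD31 contacts, and carry a coat of sialomucins. Several of these genes are not exclusive to endothelium, since CD31 is also present on platelets and many leukocytes, Vwf in megakaryocytes and Tek on hematopoietic stem cells.

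The mice were C57BL/6Ncr animals 8 weeks old, either wild type or Sipa1 knockout, and Sipa1 encodes a GTPase-activating protein for Rap1. All of them, controls included, carried a subcutaneous tumor of GFP+ Bcr-Abl+ hematopoietic progenitor cells placed in Matrigel, collected at day 12. The MSCs were the cells negative for GFP, CD45, Ter119 and CD31, so Pecam1, which encodes CD31, is a gene whose protein was used to leave endothelial cells out of this sort. The CD8+ T cells were negative for GFP and positive for TCRb and CD8, with no gate on CD31. The labels count 5 mice per genotype and do not say whether they were pooled. The Sipa1-/- host carries the knockout in every cell type. The MSC gate is defined by what the cells lack, not by a mesenchymal marker.

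RNA of each of the 4 conditions was hybridized in one color to 1 Agilent array, all 4 on 1 slide, so there was no replicate, no test and no p-value, and the number of arrays limits the precision. Values are log2 signals relative to the 75th percentile of the array, so that 0 is that percentile. Errors are those the scanner software estimated for the single spot. They were 0.14 to 0.15 log2 units for most values, and they hold nothing of the spread between mice. A log2 ratio of 1, a 2-fold difference, was the threshold for counts. Both probes of Sipa1 itself were lower on the Sipa1-/- arrays, at 1.46 and 3.78 against 3.05 and 5.03 for MSCs, and at 1.39 and 3.73 against 3.43 and 5.40 for CD8+ T cells. Both Sipa1 probes stayed well above background on the Sipa1-/- arrays, and the source of that remaining signal was not tested. The Wt MSC array stood apart by its B-lineage signal, although the gate was CD45-negative. The paper reports that subcutaneous Bcr-Abl+ cells were biased toward the B lineage, and that its MSC sorts held little GFP+ or CD31+ contamination. In Sipa1-/- MSCs all 14 measured B-lineage markers were lower by more than the threshold, with a median log2 ratio of -4.19. Every ratio of the MSC pair below therefore has an array with that signal as its denominator, and the part of those cells in any of them was not tested. In bulk RNA, fewer cells of a type and less RNA per cell cannot be told apart.

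Of the 10 endothelial genes, 7 were well above background on all 4 arrays, Tek and Cldn5 on 3 and Tie1 on 2. On the MSC arrays 8 were measured on both. The VEGF receptors Flt1 and Kdr and the angiopoietin receptor Tek were at least 2-fold higher on the Sipa1-/- array, Pecam1 was at least 2-fold lower, and the other 4 stayed within 2-fold. The median log2 ratio of the 8 was 0.81, against 0.04 for all 15298 genes measured on both arrays. Among all those genes 19.3% passed the threshold upward and 11.3% downward, together 30.7%. The count of the endothelial genes, 4 of 8 in both directions, is to be read against that large share.

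**Figure D1:**
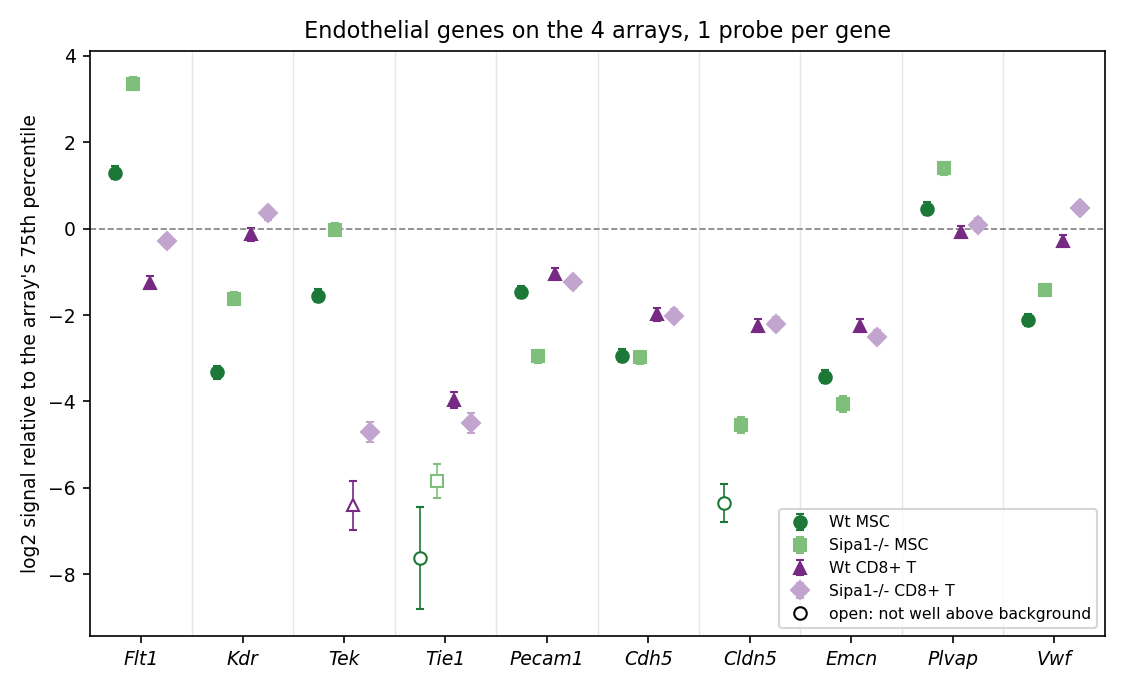
The vertical axis is the log2 signal of the single probe of each endothelial gene relative to the 75th percentile of its array, with points for the 4 arrays, bars for the scanner software's error of the spot, and open symbols for signals not well above background. Flt1 at 3.36 on the Sipa1-/- MSC array is the value farthest above 0, and Tie1 and Cldn5 are open on the Wt MSC array.

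The receptor tyrosine kinases are described first. Flt1, VEGF receptor 1, which binds VEGF tightly and also exists as a soluble decoy, had a log2 signal of 1.30 on the Wt MSC, 3.36 on the Sipa1-/- MSC, and, for CD8+ T cells, -1.25 in Wt and -0.29 in Sipa1-/-. It was brighter on both MSC arrays than on either CD8+ T array. In MSCs it was 4.17-fold higher on the Sipa1-/- array, a log2 ratio of 2.06 ± 0.20 (software error), and 2.99% of the genes measured there had a ratio as high. Kdr, VEGF receptor 2, the main signaling receptor for VEGF in endothelium, read -3.33, -1.62, -0.13 and 0.35 in the same order of arrays. Unlike for Flt1, both CD8+ T arrays were above both MSC arrays, while within each cell type the Sipa1-/- array was the higher one for both genes. The MSC ratio of Kdr was 1.71 ± 0.21, 3.27-fold, with 6.80% of genes as high, and it was 0.97, below the threshold, when the background was corrected with normexp.

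Tek, the receptor for angiopoietins also called Tie2, had log2 signals of -1.55 on the Wt MSC and -0.02 on the Sipa1-/- MSC array. On the CD8+ T arrays it was at -4.72 in Sipa1-/- cells and not well above background in Wt cells. The MSC ratio was 1.53 ± 0.20, 2.89-fold, with 9.79% of genes as high. Tie1, the orphan receptor that pairs with Tek, was not well above background on either MSC array, so no ratio is given for MSCs. It was at -3.97 in Wt and -4.50 in Sipa1-/- CD8+ T cells. Tek was therefore brightest on the arrays of MSCs, and Tie1 was well above background only on those of CD8+ T cells. On the Sipa1-/- CD8+ T array both were dim, where the lowest signal well above background was -5.49. On the Sipa1-/- MSC array Tie1, at -5.84, lay just under the lowest such signal, -5.79.

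The promoters of the 3 receptors that were at least 2-fold higher on the Sipa1-/- MSC array are printed here. An endothelial promoter is often described through binding of ETS factors. Sequences are from RefSeq for assembly GRCm38.p6, 250 bases before to 50 after an annotated start, 5′ to 3′ on the strand of the gene. The annotated span of each of the 3 genes reaches further upstream than this start. Positions therefore hold for the start used here only. Capitals mark matches on either strand. The motifs searched were the ETS family hexamer AGGAAG, a further ETS hexamer written CCGGAA, the GATA family hexamer TGATAA, the SOX family hexamer ACAATG, and for the TATA box TATAAA, and in these windows none of the matches overlapped another. The Flt1 window is chr5:147725962-147726261 on the minus strand, the Kdr window chr5:75978406-75978705 on the minus strand, and the Tek window chr4:94739039-94739338 on the plus strand.
Flt1: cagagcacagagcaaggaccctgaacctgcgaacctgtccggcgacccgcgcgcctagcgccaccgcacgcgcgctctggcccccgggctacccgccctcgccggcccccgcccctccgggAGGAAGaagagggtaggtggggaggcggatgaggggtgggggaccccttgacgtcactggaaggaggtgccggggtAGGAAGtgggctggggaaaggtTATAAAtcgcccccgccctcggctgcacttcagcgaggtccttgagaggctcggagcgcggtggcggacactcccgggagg
Kdr: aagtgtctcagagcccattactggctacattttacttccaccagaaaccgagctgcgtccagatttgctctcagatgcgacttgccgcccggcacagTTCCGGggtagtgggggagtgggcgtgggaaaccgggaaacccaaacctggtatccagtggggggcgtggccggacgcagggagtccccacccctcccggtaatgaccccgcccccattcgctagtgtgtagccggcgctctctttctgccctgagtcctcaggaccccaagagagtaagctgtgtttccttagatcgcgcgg
Tek: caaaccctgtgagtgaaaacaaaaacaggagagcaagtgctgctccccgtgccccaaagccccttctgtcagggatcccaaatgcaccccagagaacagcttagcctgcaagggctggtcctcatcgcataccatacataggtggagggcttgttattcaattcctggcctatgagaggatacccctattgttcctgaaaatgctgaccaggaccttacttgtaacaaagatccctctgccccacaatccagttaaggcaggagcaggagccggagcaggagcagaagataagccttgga
The Flt1 window held AGGAAG at positions -129 and -53 and TATAAA at -31, the Kdr window held CCGGAA on the opposite strand at -153, and the Tek window held none of the motifs searched. Of 32851 promoter windows in the RefSeq table, 35.4% held AGGAAG, 14.9% CCGGAA and 13.6% TATAAA. So the 3 windows shared no motif of those searched, and matches as short as these are a description of the letters only.

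The 3 junction genes differed from each other on the MSC arrays. Pecam1, the homophilic adhesion molecule CD31, had log2 signals of -1.47 on the Wt MSC, -2.96 on the Sipa1-/- MSC, with -1.05 in Wt and -1.23 in Sipa1-/- CD8+ T cells. The Sipa1-/- MSC array was the low one and the other 3 lay close together. Pecam1 was 2.80-fold lower there than on the Wt MSC array, a log2 ratio of -1.49 ± 0.21, and 6.16% of genes had a ratio as low. With normexp the ratio was -0.99. Common leukocyte genes moved the same way on these arrays, 13 of 14 being at least 2-fold lower with a median log2 ratio of -2.19, and their part in the Pecam1 value was not tested.

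Cdh5, VE-cadherin, the cadherin of endothelial adherens junctions, was level between genotypes in both cell types. It read -2.94 and -2.98 on the Wt and Sipa1-/- MSC arrays and -1.99 and -2.01 on the CD8+ T arrays. The MSC ratio of -0.03 ± 0.21 was smaller than its error and changed sign with normexp and with the values of the series matrix. Cldn5, the main claudin of endothelial tight junctions, was not well above background on the Wt MSC array and read -4.54 on the Sipa1-/- MSC array, which makes it at least 2.49-fold higher there. On the CD8+ T arrays it was brighter and level, at -2.25 and -2.20.

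The remaining endothelial genes encode a sialomucin, a component of fenestral diaphragms and a clotting protein. Emcn, endomucin, the sialomucin of capillary and venous endothelium, read -3.43 on the Wt MSC, -4.06 on the Sipa1-/- MSC, with -2.25 in Wt and -2.50 in Sipa1-/- CD8+ T cells. Its MSC ratio of -0.63 ± 0.24 stayed within 2-fold. Plvap, which builds the diaphragms of fenestrae and caveolae, read 0.46, 1.40, -0.07 and 0.09 in that order. The Sipa1-/- MSC array was the high one, with a ratio of 0.93 ± 0.20 that passed 2-fold, at 1.14, only with the series matrix values. Vwf, von Willebrand factor, the adhesive protein stored in endothelium and platelets, read -2.12, -1.42, -0.28 and 0.47, so that both CD8+ T arrays were above both MSC arrays. Its MSC ratio was 0.69 ± 0.21.

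On the CD8+ T arrays 9 of the endothelial genes were measured on both, and all 9 were within 2-fold. Across the 14339 genes measured there, 2.66% passed the threshold upward in Sipa1-/- cells and 1.4% downward, together 4.06%. The median log2 ratio of the 9 was 0.05, against -0.02 for all genes. Flt1 came nearest to the threshold with 0.96 ± 0.20, a ratio reached by 2.91% of genes, and it passed it with the series matrix values, at 1.09. Vwf followed with 0.76 ± 0.20, reached by 4.44% of genes, and then Kdr with 0.48 ± 0.20. Tie1 was the lowest at -0.53 ± 0.29, with 3.73% of genes as low, and its ratio was -0.10 with normexp. Tek, above background in the Sipa1-/- cells only, was at least 1.80-fold higher there. Fibroblast markers were higher on the same array, 13 of 15 by at least 2-fold, with all 15 well above background on both arrays. Their summed signal went from 212 to 309 times the 75th percentile, of which Thy1, also a T cell marker, made up 165 and 176. Granulocyte markers went the other way, 8 of 11 by more than 2-fold with a median of -1.27 and sums of 642 and 338. The part of fibroblast RNA or of granulocytes in the Flt1, Vwf and Kdr values was not tested. Whether the genotype ratio of any endothelial gene differed between MSCs and CD8+ T cells was not tested either, with 1 array each.

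**Figure D2:**
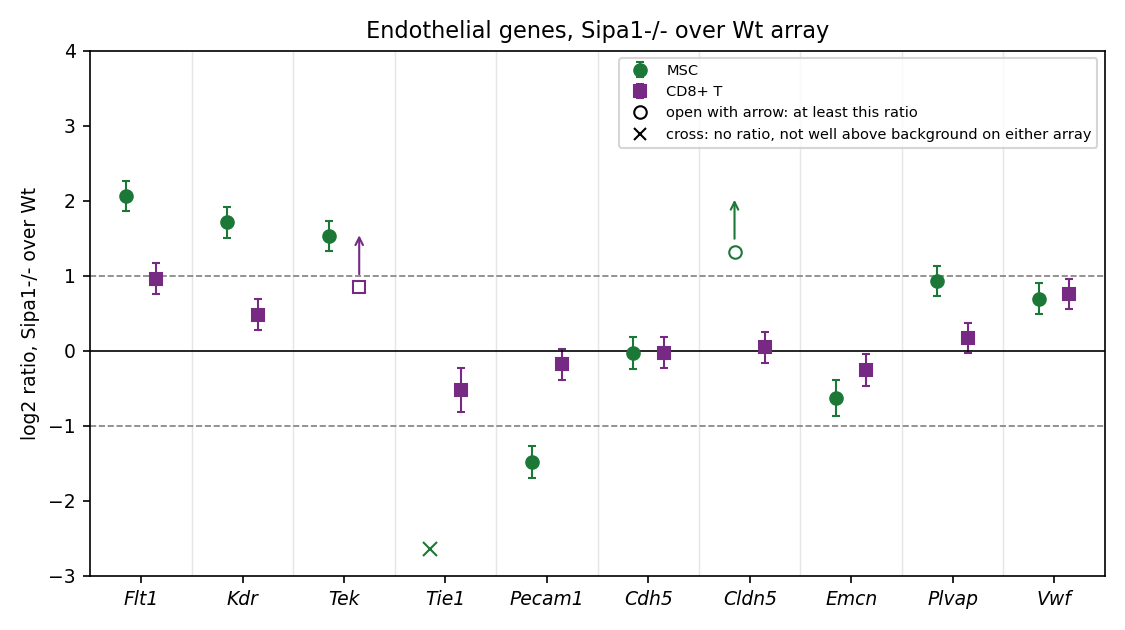
The vertical axis is the log2 ratio of the Sipa1-/- over the Wt array for each endothelial gene, circles for MSCs and squares for CD8+ T cells, with the software error of both spots as bars, and dashed lines at 2-fold. In MSCs Flt1, Kdr and Tek lie above the upper line and Pecam1 below the lower one, whereas all filled squares lie between the lines, open symbols with arrows (Cldn5 in MSCs, Tek in CD8+ T cells) are bounds, and the cross marks Tie1, which has no MSC ratio.

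Set against each other within a genotype, the 2 sorted populations divided the endothelial genes. On the Wt arrays 7 genes were measured in both populations. Flt1 was 5.84-fold higher on the MSC array, a log2 ratio of 2.55 ± 0.20, while Kdr was 9.19-fold, Vwf 3.56-fold and Emcn 2.27-fold lower on it. Pecam1, Cdh5 and Plvap were within 2-fold, with log2 ratios of -0.42, -0.96 and 0.54. Among 14225 genes measured on both Wt arrays 17.3% passed the threshold toward MSCs and 12.8% toward CD8+ T cells, together 30.1%. The genes measured in only 1 population widened the division. Tek was at least 16.1-fold higher on the Wt MSC array, whereas Cldn5 was at least 12.2-fold and Tie1 at least 3.71-fold lower on it.

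The Sipa1-/- arrays gave the same sides. There 9 genes were measured on both, with Tek 25.8-fold, Flt1 12.5-fold and Plvap 2.47-fold higher on the MSC array, and Cldn5 5.07-fold, Kdr 3.92-fold, Vwf 3.72-fold, Pecam1 3.30-fold and Emcn 2.95-fold lower on it. CD31 was a gate of the MSC sort only, so the Pecam1 ratios between the cell types are given as a description. Cdh5 was again just inside the threshold, at -0.96, and Tie1 was at least 2.45-fold lower. For these arrays 21.9% of 14301 genes passed the threshold toward MSCs and 18.7% toward CD8+ T cells, together 40.6%. These comparisons reuse the arrays of the genotype comparisons. On the Wt arrays the Pecam1 ratio was 0.04 with the series matrix values, the Emcn ratio was within 2-fold with them and with normexp, and the Cdh5 ratio passed 2-fold with median shift and quantile normalization. As a check of the labels, T cell markers were lower on the MSC arrays, 12 of 12 measured by at least 2-fold on the Wt arrays with a median log2 ratio of -6.29, and fibroblast markers were higher, 12 of 13 by at least 2-fold with a median of 4.82.

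**Figure D3:**
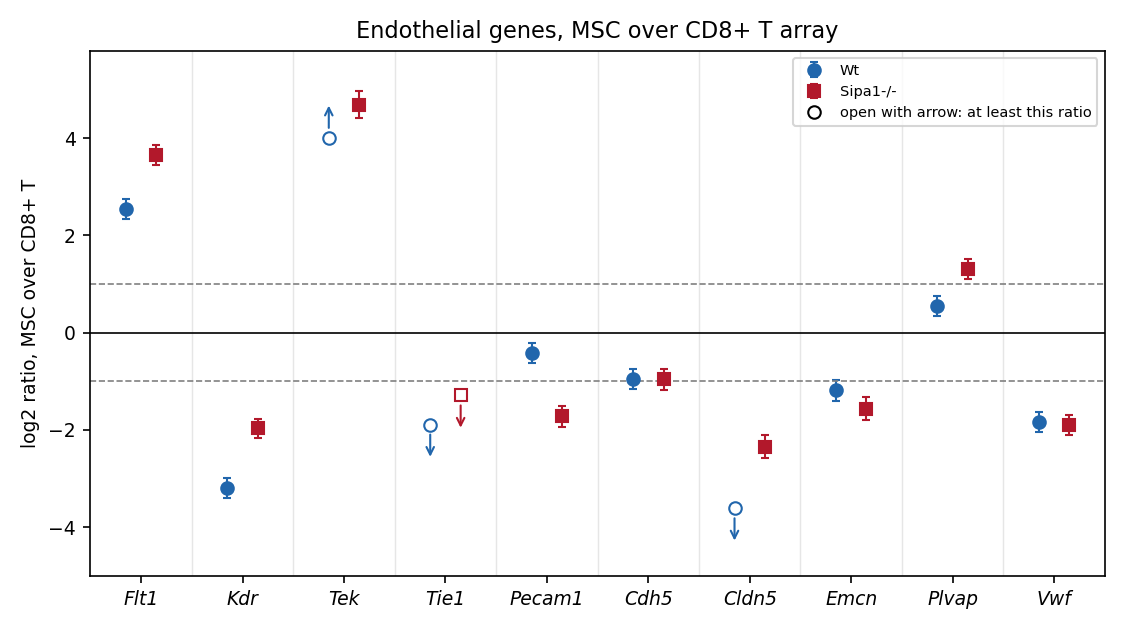
The vertical axis is the log2 ratio of the MSC over the CD8+ T array for each endothelial gene, circles for Wt and squares for Sipa1-/- mice, with software errors as bars, dashed lines at 2-fold and arrows where 1 array gives only a bound. Flt1, Tek and Plvap lie above 0 in both genotypes and the other 7 genes below 0.

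The ligands and partners of these receptors were followed through whole lists, each given by its counts, which are to be read against the 19.3% of all genes that were higher and the 11.3% that were lower by 2-fold or more on the Sipa1-/- MSC array. Among VEGF ligands and the other VEGF receptors, 4 of 7 measured genes were at least 2-fold higher on the Sipa1-/- MSC array, none was lower, and the median log2 ratio was 1.22. The 4 were the co-receptor Nrp1 at 1.44, Vegfd at 1.35 and Vegfc at 1.33, which act mainly on lymphatic vessels through Flt4, and Pgf at 1.22, a ligand of Flt1. Flt4, VEGF receptor 3, was at background level on each of the 4 arrays, with no signal well above it. Of the angiopoietins and their phosphatase, 3 of 4 were at least 2-fold higher. Angpt4 went from -4.24 to -1.10, Angpt1, the ligand that activates Tek, from -1.44 to 0.18, and Ptprb, which dephosphorylates Tek and VE-cadherin, from -3.69 to -2.28. In the list of Notch and ephrin genes of vessels 4 of 7 were at least 2-fold higher and none was lower by as much. The 4 were Efnb2 at 2.43, its receptor Ephb4 at 1.55, and Notch4 and its ligand Jag1, both at 1.27.

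Other surface and secreted genes of endothelium moved in both directions on the MSC arrays. Of 35 genes 28 were measured, of which 12 were higher by 2-fold or more and 2 lower, with a median log2 ratio of 0.59. Among all genes 19.3% were higher and 11.3% lower by as much. Apln, the apelin peptide of sprouting vessels, was highest at 2.56, followed by Mmrn2, a ligand of the vessel lectin Clec14a, at 2.14, Tmem100 at 2.07 and the scavenger receptor Stab1 at 1.90. The lower ones were Cd93 at -4.21, from 4.80 to 0.59, and Icam2 at -3.02, from 3.32 to 0.30. Cd93 also marks early B-lineage progenitors and Icam2 is also present on lymphocytes. Mmrn2 resembled Kdr in the order of the arrays, at -3.93 and -1.78 on the Wt and Sipa1-/- MSC arrays against -0.06 and 0.03 on the Wt and Sipa1-/- CD8+ T arrays.

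Transcription factors of endothelium were split. Of 20 measured on the MSC arrays 5 were higher by 2-fold or more and 6 lower, with a median of 0.20. The shares of all genes were 19.3% higher and 11.3% lower. Klf4 at 1.84, the venous factor Nr2f2 at 1.70, the hypoxia factor Epas1 at 1.47 and the Notch target Hey1 at 1.38 were the highest. Erg, an ETS factor that maintains endothelial identity, went from 1.89 to -1.95, its relative Fli1 from 1.25 to -1.45, Lyl1 from 5.38 to 2.83 and Hhex from 0.58 to -1.80. All of these lower ones are also active in hematopoietic progenitors. Of 5 lymphatic genes measured, 1 was higher and 2 were lower by 2-fold or more. These were Pdpn at 1.09 against Mmrn1 at -4.81 and Reln at -4.02. Prox1, the defining lymphatic factor, was measured on both MSC arrays, and Lyve1 was not well above background on any array.

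On the CD8+ T arrays fewer genes of these lists were past 2-fold, as was the case for all genes, of which 2.66% were higher and 1.4% lower. At least 2-fold higher were 2 of 30 measured surface and secreted genes and 1 of 7 VEGF genes, Vegfd at 1.38, and at least 2-fold lower was 1 of 18 transcription factors. None of the 2 measured angiopoietin-list genes, the 6 Notch and ephrin genes or the 2 lymphatic genes passed 2-fold.

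**Figure D4:**
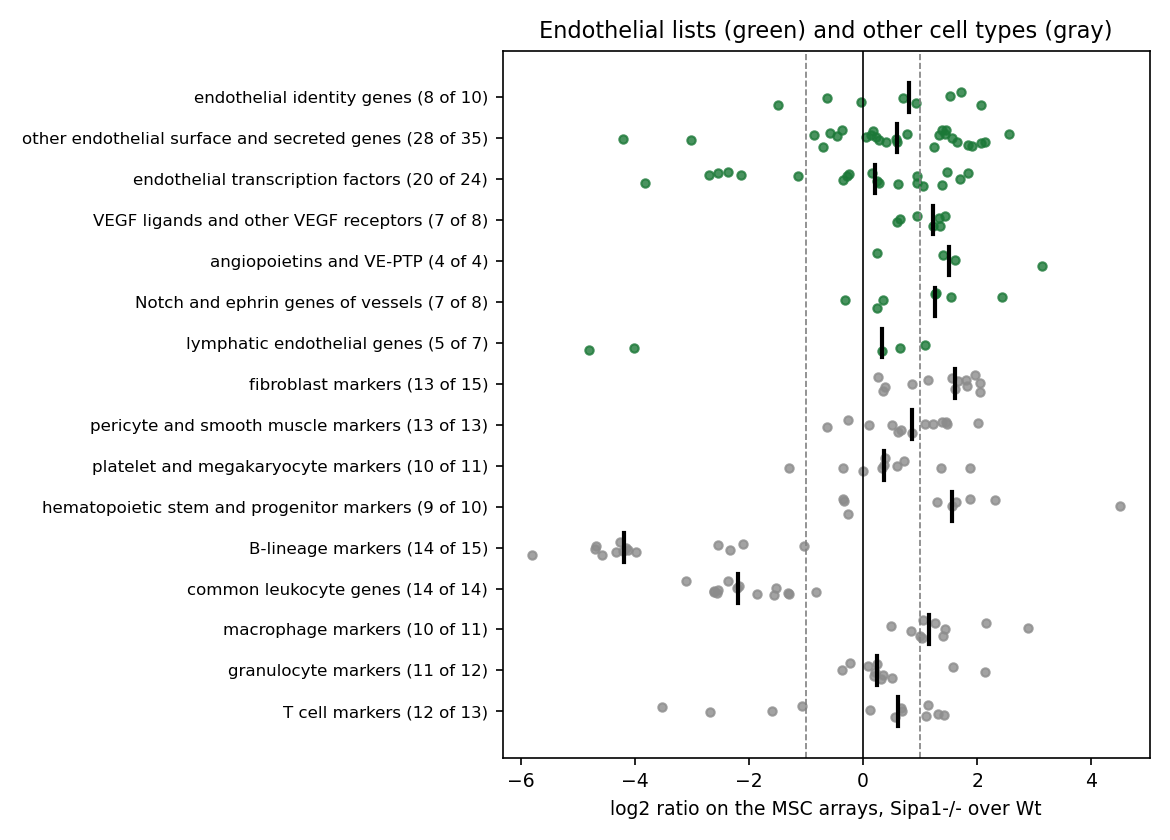
The horizontal axis is the log2 ratio of the Sipa1-/- over the Wt MSC array, each point is a gene measured on both arrays, black bars are list medians, dashed lines mark 2-fold, and the numbers after each name give the genes measured of those listed. The endothelial identity genes spread from -1.49 to 2.06 around a median of 0.81, while B-lineage and common leukocyte genes lie to the left and fibroblast markers, with a median of 1.62, to the right.

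Markers of other cell types that could carry endothelial genes were read on the same MSC arrays, with the same shares of all genes as the background. Of the platelet and megakaryocyte markers 2 of 10 were at least 2-fold higher and 1 lower, with a median of 0.37 and a summed signal of 2.01 times the 75th percentile in Wt and 3.31 in Sipa1-/- MSCs. Pf4 and Itga2b, which define this lineage, were measured on both arrays. The hematopoietic stem and progenitor list had 6 of 9 at least 2-fold higher and none lower by as much. Its median was 1.56 and its summed signals were 28.8 and 76.9, with Mecom not well above background on either array. Fibroblast markers had 9 of 13 at least 2-fold higher and summed signals of 1103 and 1911. Pericyte and smooth muscle markers, cells that wrap endothelium, had 6 of 13 at least 2-fold higher. Their median was 0.86 and their summed signals were 48.5 and 64.4. Macrophage markers had 7 of 10 at least 2-fold higher, a median of 1.15 and sums of 4.85 and 11.8. Granulocyte markers had 2 of 11 higher and none lower, a median of 0.24 and sums of 736 and 828, and T cell markers had 4 higher and 4 lower of 12, a median of 0.61 and sums of 66.3 and 99.98. Thy1, which the fibroblast list also holds, made up 42.6 and 93.8 of these sums, and without it the T cell sum was lower on the Sipa1-/- array, at 6.23 against 23.7. The B-lineage sum went the other way, from 694 to 43.1, with Rag1 not well above background on the Sipa1-/- array, and that of common leukocyte genes from 218 to 58.7. The part of any of these cells in the Flt1, Kdr, Tek and Plvap values was not tested.

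As the endothelial genes took opposite orders over the arrays, their average lay apart from each of them. Centred on its own mean over the 4 arrays, the average profile was -0.66 on the Wt MSC, 0.18 on the Sipa1-/- MSC, 0.08 in Wt and 0.40 in Sipa1-/- CD8+ T cells. The single genes lay at Euclidean distances of 0.82 for Cdh5 to 5.36 for Tek from it. Both the average and these distances include signals not well above background. These were Tie1 on both MSC arrays, Cldn5 on the Wt MSC array and Tek on the Wt CD8+ T array. The 10 genes nearest to that average were AI854703, Ldhd, Csprs, Stxbp3-ps, Vxn, Sarm1, Ago3, Olfr1048, Hrh4 and Inpp5f. Their distances were 0.07 to 0.13 over 4 arrays. The search started from the 15298 genes measured on both MSC arrays and left out the endothelial genes and Gm, Rik and LOC symbols. As these genes were picked for being nearest, their distances are not to be compared with those of the endothelial genes.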

How the data were processed

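One-color Cy3 signals of 4 Agilent mouse expression arrays (SurePrint G3, version 2 design), 1 each for Wt and Sipa1-/- MSCs and CD8+ T cells, were read from the deposited scanner output. The authors deposited spot intensities after the background correction of Feature Extraction (version 12.0.3.1 in the file headers, 9.1 in the submitters' processing notes), with flags per spot and the software's error, without normalization between arrays. The series matrix holds the same intensities times 1 constant per array, on a linear scale, uncentred, and how the constants were chosen is unknown. Its column medians were 41.0, 52.0, 25.5 and 30.9 for the Wt MSC, Sipa1-/- MSC, Wt CD8+ T and Sipa1-/- CD8+ T arrays.

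The log2 signal minus the array's 75th percentile over 59305 non-control spots was used. Of those spots 60.3% to 65.3% per array were well above background, none was saturated, and the median SD among probes on 10 spots was 0.040 to 0.044 log2 units. Spots passing the flags named in the methods on both arrays of a pair were kept and averaged by probe, then by gene. Symbols came from accessions matched to RefSeq (GRCm38.p6), which named 57.6% of the spots. Where a probe was not well above background on 1 array, the brighter signal was set against the lowest signal well above background there, or the dim probe's own if higher, and written as "at least". Genes named beside the 10 were the up to 4 largest log2 ratios past 2-fold in each direction of each list in the MSC pair, given here for the endothelial lists, and defining markers of other cell types were named where they stand beside a result. Flt4, Lyve1 and Prox1 were added for their detection after their values were seen. Members, lists and motifs were chosen with earlier results of these data known. The calculation was tested on simulated arrays with known changes well past the threshold and noise smaller than the software errors. That test checked the arithmetic only, not the precision of the ratios. The ratios of the 10 genes between genotypes in each cell type and between cell types in Wt mice were recomputed with a median shift, with quantile normalization, from the series matrix, after normexp on median spot signals (offset 50), with looser flags (required on 1 array, or not at all), with saturated spots left in, from the brightest probe of a gene, and in the brighter part of the genes, above the median signal. Software used was R 4.3.3 with limma 3.58.1, and Python 3.11.15 with pandas 2.3.3 and numpy 2.4.6.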

Additional observations from a re-analysis of the deposited data

Results flagged for a closer look

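Rgs5 and Kcnj8, pericyte genes from the list of cells that wrap endothelium, lay past 2-fold in opposite directions in MSCs and CD8+ T cells. Rgs5 had a log2 ratio, Sipa1-/- over Wt, of 1.39 on the MSC arrays and -1.64 on the CD8+ T arrays. Its log2 signals were -1.94 (Wt) and -0.56 (Sipa1-/-) for MSCs, against -1.89 (Wt) and -3.53 (Sipa1-/-) for CD8+ T cells. Kcnj8 had ratios of 1.22 and -1.04, the second only just past the threshold. Both genes are named here because they met this rule. Of the 11 pericyte and smooth muscle genes measured in both cell types these 2 did so, 1, Pdgfrb, was higher past 2-fold in both (2.02 and 1.68), and 8 were within 2-fold in at least 1 cell type. With a single array per condition these differences were not tested. None of the 7 endothelial genes measured in both cell types lay past 2-fold in opposite directions.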

How the results depend on the processing

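The comparison of the cell types in Sipa1-/- mice and the other gene lists were not recomputed. No paired analysis was possible because there is a single array per condition. Keeping saturated spots and taking the brightest probe changed no value of the 10 genes, as none was saturated and each has 1 probe. The cause of the moves below was not tested, except where fewer or more genes enter.

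In MSCs the median of 0.81 was 0.93 with flags on 1 array, 1.23 without flags, 0.67 with median shift, 1.02 with the series matrix, 0.71 with normexp and 1.50 when only genes above the median signal entered, where 2 of the 10 remained. The count of 3 higher was 4 with flags on 1 array and with the series matrix, and 5 without flags. It was 2 with normexp and 1 above the median signal. The count of 1 lower was 0 under normexp as well as above the median signal. In CD8+ T cells the median of 0.05 was 0.11 with flags on 1 array and without flags, -0.10 with median shift, -0.042 with quantile normalization, 0.18 with the series matrix and 0.48 above the median signal, and the count of 0 higher was 1 with flags on 1 array, without flags and with the series matrix. For Wt MSC over Wt CD8+ T the median of -0.96 was -1.07 with flags on 1 array and without flags, -1.19 with median shift, -1.08 with quantile normalization, -0.50 with the series matrix, -0.61 with normexp and 1.54 above the median signal, where 2 of the 10 remained. The count of 1 higher was 2 with flags on 1 array and without flags. The count of 3 lower was 5 under both of these, and 4 with median shift and with quantile normalization. It was 2 with the series matrix and with normexp, and 0 above the median signal. With median shift and with quantile normalization Pecam1 in MSCs, at -1.62, had a larger ratio in size than Tek, at 1.39 and 1.55. None of the 10 genes past 2-fold in the 3 comparisons changed sign under any of these alternatives.

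The series matrix moved the median of all genes by 0.21 in MSCs, 0.13 in CD8+ T cells and 0.45 for Wt MSC over Wt CD8+ T, and median shift by -0.14, -0.15 and -0.23. Of the genes past 2-fold in these comparisons 63.1%, 65.5% and 57.4% were higher, against 74.1%, 76.3% and 76.6% with the series matrix and 54.1%, 52.5% and 45.5% with median shift. Most of the 10 genes were dim, which limits the precision of their ratios.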

Other observations

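Of the 10 endothelial genes 6 had a promoter window in the RefSeq table, Kdr, Tek, Tie1, Flt1, Emcn and Cldn5. Among these 6 the ETS hexamer AGGAAG was present in 3, Tie1, Flt1 and Emcn, against 35.4% of all windows, CCGGAA in Kdr alone, TGATAA in Emcn alone, against 9.05% of all windows, and ACAATG in none, against 12.6%.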
